A study of Caenorhabditis elegans with 93 samples.

Results

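Chromatin accessibility was compared between the early and the late generations of 3 lineages of C. elegans embryos, to ask whether regulatory elements drifted one way as the lineages were propagated. The early class holds the 10 ATAC-seq libraries of generations 2, 4, 8 and 10 and the late class the 12 libraries of generations 14, 16, 18 and 20, which makes 22 of the 31 ATAC-seq libraries. Both classes are of the wild-type laboratory strain N2, kept at one temperature on bacterial plates without any treatment, and embryos were collected from each lineage by bleaching. Lineages A, B and C were each founded by 2 hermaphrodites and passed on by 2 hermaphrodites a generation. Each lineage and generation has 1 library, so the libraries of a class differ in lineage and generation and none is a repeat of another. The embryos were of mixed stages and were sequenced in bulk, so a change in the share of a cell type cannot be told apart from a change within its cells. Generations 0, 6 and 12 enter neither class, and B at generation 4 and C at generation 8 have no ATAC-seq library. RNA-seq and small RNA-seq, read for the same classes, have no library of B at generation 4 or of C at generation 14.

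ATAC-seq reads out accessible DNA, because the Tn5 transposase inserts sequencing adapters where nucleosomes leave the DNA free. Active promoters and enhancers are accessible in this way, and many of those of C. elegans open in particular tissues of the embryo. Propagation through very few animals relaxes selection, so that heritable changes, in sequence or in chromatin, may be kept even where they bring no advantage.

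The elements are 31618 intervals of 150 bases from a published set of promoters and enhancers, and their values are read counts divided by the size factor of the library (normalized counts). An element was tested if its mean over the 22 libraries was at least 10 normalized counts, which 31514 elements met. The last element below that limit, nearest to dhs-22, had a mean of 9.96 and the first above it, nearest to cdk-2, a mean of 10.03. Reads in elements ranged from 4311349 to 12140587 in the early libraries (median 6392326) and from 2995631 to 12251653 in the late libraries (median 4816247). All markers of gut, muscle, epidermis, neurons, pharynx and early embryo and germline (38 genes) were read in the RNA-seq of every library of both classes, whereas msp-142, msp-3 and spe-11, genes of sperm, had a median of 0.

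No regulatory element passed the test between early and late generations. By limma on log2(normalized count + 1) with lineage as a block, 0 of 31514 elements were higher and 0 were lower in the late generations (0.00% of those tested, Benjamini-Hochberg adjusted p under 0.05), and the lowest adjusted p was 0.253. At an unadjusted p under 0.05 there were 910 elements (2.89%), of which 601 were higher (1.91%) and 309 lower (0.981%). The quasi-likelihood test of edgeR on the recovered reads also called 0 elements either way, with 787 at an unadjusted p under 0.05. DESeq2 on the same reads called 7 elements higher and 0 lower, with 1046 at an unadjusted p under 0.05.

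The differences themselves were small. The median log2 difference, late minus early, was 0.0071 over all elements tested, the 5th and 95th percentiles were -0.17 and 0.21, and the extremes were -0.69 and 0.93. The median 95% confidence interval reached 0.23 to either side of the estimate on the log2 scale. For 31406 elements (99.7%) the interval lay wholly between -1 and 1, that is within a doubling or halving, and for 27721 elements (88.0%) it lay between -0.5 and 0.5. For the other elements a change past the narrower bound was not excluded by these libraries. Of the point estimates, 90 lay beyond 0.5 and 0 beyond 1.

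The change also did not differ detectably between lineages. An F test of the interaction of class and lineage by limma called 0 of 31514 elements (0.00%), with 440 at an unadjusted p under 0.05 (1.40%) and a lowest adjusted p of 0.9998. When each lineage was fitted alone, the 3 estimates had the same sign in 23.9% of all elements. Of the 601 elements higher at an unadjusted p under 0.05, 559 had a positive estimate in all 3 lineages, and of the 309 lower ones 284 had a negative estimate in all 3, a count that the choice by p favours.

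**Figure D1:**
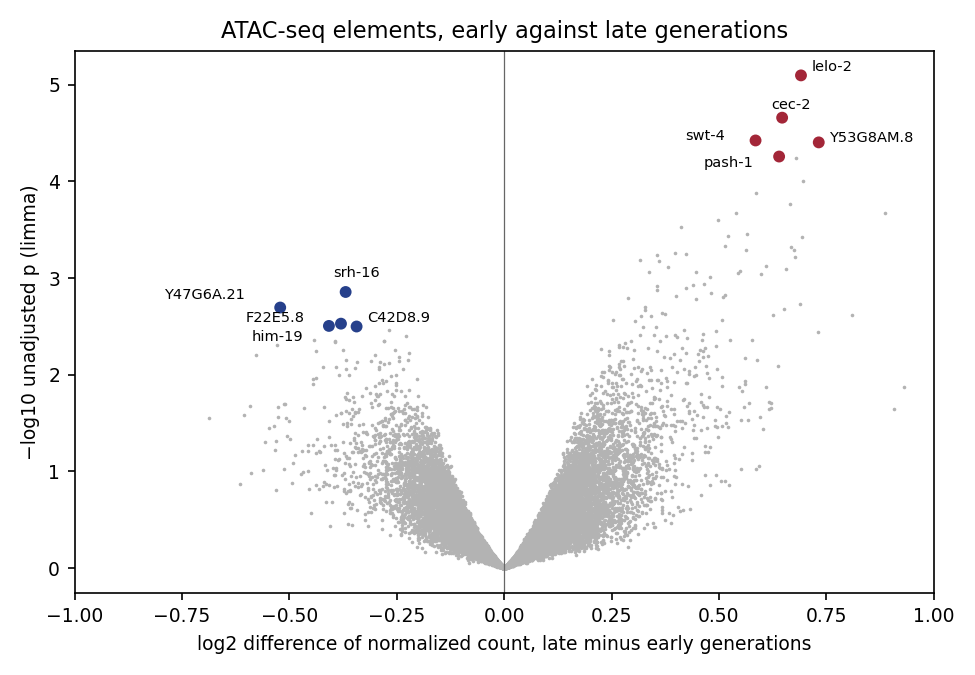
Each grey point is 1 of the 31514 elements tested, with the log2 difference of its normalized count, late minus early, on the horizontal axis and the −log10 of its unadjusted p from limma on the vertical axis. The red and blue points are the 5 elements of lowest p each way, none of which passed after adjustment, and the points of lowest p lie on the side of higher late values.

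Since no element passed, the 5 with the lowest p each way are described, and none of them is a call. The element of lowest p, chrIII:1430159-1430309 between genes, lies 3008 bases upstream of the nearest coding transcript start, that of lelo-2. Its normalized count was 173.6 at the lowest, 286 at the median and 450.04 at the highest in the early libraries and 349, 445 and 720 in the late libraries. All 12 late libraries were above the early median and 6 of them were above every early library, but the classes overlapped. The log2 difference was 0.69 ± 0.13 (SE, 95% interval 0.42 to 0.96, limma adjusted p = 0.253), with 0.82 in lineage A, 0.50 in B and 0.73 in C. In generation 0 the same element had 241, 280 and 276 normalized counts in lineages A, B and C, and in generation 12 it had 323, 377 and 496.

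The second, chrIV:1168625-1168775, lies 2008 bases upstream of cec-2, which encodes a protein with a chromodomain, the fold that binds methylated histones. The early libraries gave 141.8 at the lowest, 280.2 at the median and 444 at the highest, and the late libraries 305, 436 and 698. Again every late library was above the early median, and 5 were above every early library. The log2 difference was 0.65 ± 0.13 (SE, limma adjusted p = 0.305). The mRNA of cec-2 had medians of 1127 normalized counts early and 1072 late, a log2 difference of -0.11 ± 0.13 (SE, limma adjusted p = 0.732).

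The third, chrIII:10628476-10628626, lies 45 bases upstream of a start of swt-4, which encodes a sugar transporter of the SWEET family, and within an intron. Its values ran from 128 through a median of 204 to 296 in the early libraries and from 211 through 277 to 507 in the late ones. The log2 difference was 0.59 ± 0.12 (SE, limma adjusted p = 0.305) for accessibility and -0.17 ± 0.14 (SE, limma adjusted p = 0.593) for the mRNA.

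The element chrIII:3279378-3279528, between genes and 743 bases upstream of Y53G8AM.8, had the largest difference of the 5, 0.73 ± 0.16 on the log2 scale (SE, limma adjusted p = 0.305). It had 158 normalized counts at the lowest, 297 at the median and 547 at the highest in the early libraries and 385, 467 and 852 in the late libraries. In 8 of 10 early libraries it lay below every late library. The mRNA of Y53G8AM.8 had medians of 3115 and 3077 normalized counts.

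The last of the higher set, chrI:10598507-10598657, lies 91 bases upstream of pash-1, the gene of the RNA-binding partner of Drosha in the first cut of microRNA precursors. Its early values were 34.7 at the lowest, 69.2 at the median and 101 at the highest, and its late values 73.8, 105 and 166. In 7 of 12 late libraries it was above every early library, the most of the 5. The log2 difference was 0.64 ± 0.14 (SE, limma adjusted p = 0.305), while the mRNA of pash-1 differed by 0.014 ± 0.12 (SE, limma adjusted p = 0.969).

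In all 5 of these elements the lowest early library was generation 2 of lineage A, the highest early library was generation 4 of lineage C and the highest late library was generation 18 of lineage C. Those 2 lineage C libraries also had high shares of counts in the strongest elements (44.2% and 48.4%, described later). Generation 10 of lineage C, with the highest early share (45.6%), was not an extreme in any of the 5. Generation 2 of lineage A, the lowest early library in all 5, had 41.6%. With that share as a covariate, an alternative chosen after seeing the data, the log2 differences were 0.67 for lelo-2, 0.66 for cec-2, 0.54 for swt-4, 0.70 for Y53G8AM.8 and 0.62 for pash-1, about as large as without it. Left out alone, generation 4 of lineage C, generation 4 as a whole or generation 16 of lineage C gave 3, 3 and 6 calls, all higher in the late generations. Other leave-outs shrank the differences. Without generation 2 they were 0.56 for lelo-2, 0.55 for cec-2, 0.47 for swt-4, 0.54 for Y53G8AM.8 and 0.46 for pash-1 (limma adjusted p = 0.99986 each). They ran from 0.46 (swt-4) to 0.65 (Y53G8AM.8) without generation 18, and from 0.42 (swt-4) to 0.63 (Y53G8AM.8) without lineage A.

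**Figure D2:**
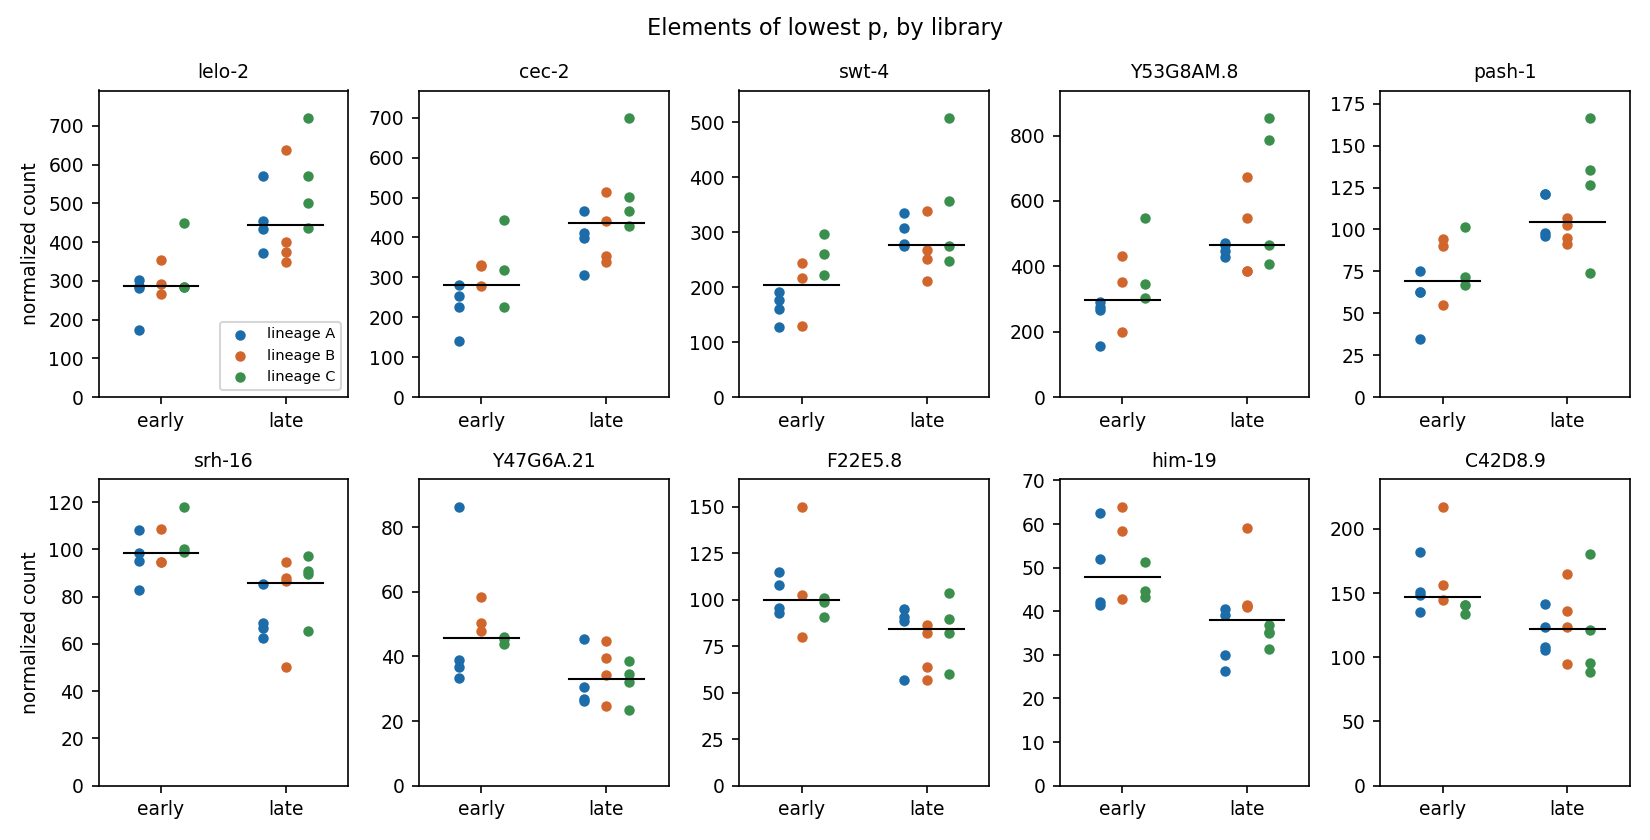
Normalized counts (vertical axis, from 0) of the 5 elements of lowest p on the higher side (upper panels) and on the lower side (lower panels), each named by its nearest gene, in the early and late libraries. Each point is 1 library coloured by lineage and the black line is the median of the class, which moves from 286 to 445 for lelo-2 and from 98.6 to 85.9 for srh-16, with overlap of the classes in every panel.

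The 5 elements on the lower side had larger p-values and an adjusted p of 0.999992 each (limma). The element chrV:12295463-12295613 lies between genes, 3677 bases downstream of the start of srh-16, a gene of the chemoreceptor class H family. Its normalized counts were 82.9 at the lowest, 98.6 at the median and 118 at the highest in the early libraries and 50.1, 85.9 and 97.3 in the late libraries. All 12 late libraries were below the early median, with a log2 difference of -0.37 ± 0.11 (SE). In the generations that entered neither class, the values in lineages A, B and C were 62.1, 81.3 and 103 in generation 0, 132, 106 and 89.7 in generation 6 and 71.8, 88.5 and 91.1 in generation 12. Generation 12 and lineages A and B of generation 0 thus lay within the late range, and lineages A and B of generation 6 above it.

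An intronic element at chrI:3553394-3553544, nearest to the start of Y47G6A.21, had the largest difference on this side, -0.52 ± 0.16 on the log2 scale (SE). It had 33.3 at the lowest, 45.7 at the median and 86.3 at the highest in the early libraries and 23.3, 33.1 and 45.3 in the late ones, with 6 late libraries below every early library. Generation 0 gave 31.8, 32.3 and 56.6 in lineages A, B and C, of which the first 2 lie within the late range and the third above it, and generation 6 gave 102, 79.8 and 94.3, all above the late range. Generation 12 gave 33.96, 34.4 and 40.1. The log2 difference of this element was -0.42 without generation 2 of lineage A and -0.38 without generation 2 as a whole, and -0.62 without generation 18.

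The exonic element chrII:2639993-2640143, 30 bases downstream of the start of F22E5.8, had a median of 99.8 normalized counts early (80.0 to 150) and 84.2 late (56.6 to 103.8), a log2 difference of -0.38 ± 0.12 (SE). That difference was -0.27 without generation 2 and -0.47 without generation 10. Generation 0 gave 68.4, 79.0 and 83.8 in lineages A, B and C, generation 6 gave 141, 129 and 124, and generation 12 gave 90.1, 110 and 108. The mRNA of F22E5.8 was at or near 0 in both classes, with medians of 0 and 1.91 normalized counts. The element chrI:895031-895181, 7 bases upstream of him-19, a gene needed for meiotic chromosome pairing, had a median of 48.0 early (41.5 to 63.9) and 38.0 late (26.3 to 59.1). In 11 of 12 late libraries it was below every early library, and the log2 difference was -0.41 ± 0.13 (SE). The exonic element chrX:5104539-5104689, nearest to the start of C42D8.9, had a median of 147 early (133 to 217) and 122 late (88.7 to 180), a log2 difference of -0.34 ± 0.11 (SE). Generation 0 gave 172, 168 and 123 in lineages A, B and C, generation 6 gave 93.6, 158 and 100, and generation 12 gave 123, 135 and 136. Lineages A and C of generation 6, C of generation 0 and A of generation 12 thus lay below every early library.

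None of the 10 elements was called between generations 0 and 12, libraries that the comparison of the classes did not use. The 5 of the higher side had log2 differences of 0.34 to 0.69, generation 12 minus generation 0, and those of the lower side 0.05, -0.10, 0.41, -0.50 and -0.22 in the order given here. The lower set thus had no common direction there.

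Elements of high signal showed the tilt towards higher late values. When the elements tested were divided by mean count into 10 classes of equal size, the strongest class held 93 elements higher and 0 lower at an unadjusted p under 0.05 of 3152, against 601 and 309 over all elements, and its median log2 difference was 0.08. The weakest class held 44 higher and 40 lower of 3152, with a median of -0.02. The lineages did not share this tilt. In the strongest class the median was 0.20 in lineage A, 0.19 in B and -0.16 in C, and in the weakest class it was -0.05, -0.08 and 0.10.

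**Figure D3:**
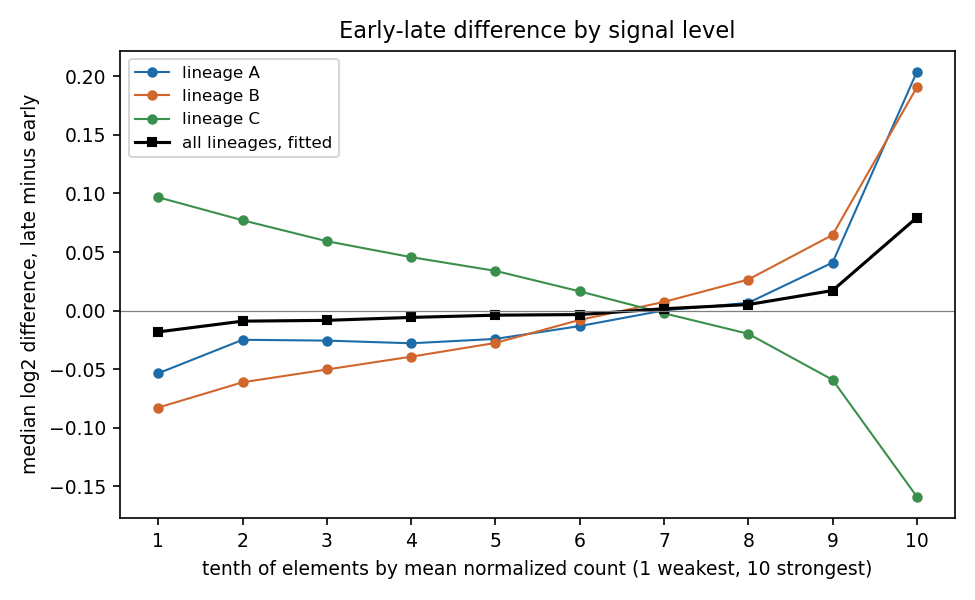
Median log2 difference of the normalized count, late minus early (vertical axis), in 10 classes of elements ordered by mean normalized count (horizontal axis). The fitted median over all lineages (black squares) runs from -0.02 in the weakest to 0.08 in the strongest class, and lineages A and B (blue and orange) slope up while lineage C (green) slopes down.

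By position, elements between genes had a median log2 difference of 0.016, those in introns 0.0020 and those in exons -0.0040. Of 15823 elements between genes 363 were higher (2.29%) and 145 lower (0.916%) at an unadjusted p under 0.05, and of 6449 in exons 94 (1.46%) and 82 (1.27%). Within 500 bases of a coding transcript start 316 of 14082 elements were higher (2.24%) and 133 lower (0.944%), and beyond 2000 bases 105 of 6755 were higher (1.55%) and 69 lower (1.02%). Over all elements tested 1.91% were higher and 0.981% lower. These shares are a description, since elements are not independent and none passed after adjustment.

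The chromosomes differed little in the median, which lay between -0.0011 on chromosome II and 0.013 on chromosome III. At an unadjusted p under 0.05, 1.91% of all elements were higher and 0.981% lower, and the shares by chromosome are a description only. Chromosome III held 127 elements higher (2.76% of 4608) and 47 lower (1.02%), and chromosome I 125 (2.59% of 4833) and 39 (0.807%). On chromosomes II, IV and V 1.43%, 2.22% and 1.72% were higher and 1.17%, 1.01% and 1.17% lower. The X chromosome, on which the dosage compensation complex lowers transcription in hermaphrodites, held 70 higher (1.09% of 6430) and 48 lower. When each chromosome was divided into 3 equal parts, the outer parts, where repeats and heterochromatin marks are more common in C. elegans, held 432 higher of 18526 (2.33%) and the central parts 169 of 12988 (1.301%). The outer parts held 192 lower (1.04%) and the central parts 117 (0.901%).

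Libraries differed widely from one another within each class. Of the total variance of the log2 values over the 22 libraries, class took 3.66%, lineage 11.5% and the generations within a class 32.4%. A factor with more levels takes a larger share even without an effect, so these shares do not rank the factors. The within-generation correlation of the ATAC-seq libraries was 0.069. The first principal component after removal of lineage held 34.6% of the variance and followed how concentrated the signal of a library was. Its Pearson correlation with the share of normalized counts in the 3162 strongest elements was 0.90 over the 22 libraries, which share these elements in both measures. That share ran from 25.3% to 45.6% in the early libraries (median 39.5%) and from 29.3% to 48.4% in the late libraries (median 39.5%), so the classes overlapped almost fully. The lowest was generation 4 of lineage A and the highest generation 18 of lineage C. The median SD of an element within a class, after removal of lineage, was 0.25 on the log2 scale in the early and 0.28 in the late libraries.

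Drift could also show as a growing distance rather than a common direction. The distance of a library from generation 0 of its lineage, taken as the SD over elements of the log2 ratio between the 2 libraries, was 0.331 at the lowest, 0.402 at the median and 0.570 at the highest in the early libraries and 0.313, 0.453 and 0.566 in the late libraries. The means over generations were 0.433 ± 0.043 early and 0.451 ± 0.026 late (SD, 4 generations each), which did not pass an exact two-sided permutation test over generation means (p = 0.486, adjusted p = 0.760). Generation 20 of lineage B, at the end of propagation, had the lowest distance of the 22, and generation 4 of lineage A the highest.

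The distance between lineages sampled in the same generation, the SD over elements of the log2 ratio of 2 libraries, was 0.454 ± 0.14 early and 0.415 ± 0.024 late (SD over 4 generation means each, exact permutation p = 0.686, adjusted p = 0.800). The early value was spread by generation 4, where only lineages A and C were sampled and stood 0.640 apart, while the 3 pairs of generation 10 lay between 0.336 and 0.394. Among 7 measures of the libraries, none passed the exact permutation test over 4 against 4 generation means, whose smallest possible p is 0.0286. A single measure at that p would have an adjusted p of 0.20, so no measure could have passed alone after adjustment, and the p-values do not show that the classes are alike. The share of normalized counts in the 3162 strongest elements differed by 2.41 percentage points (p = 0.543), that on the X chromosome by 0.036 (p = 0.971), that within 500 bases of a start by 0.091 (p = 0.457) and that in exons by -0.66 (p = 0.543), all late minus early and with exact permutation p-values. Reads in elements differed by -1022750 (exact permutation p = 0.429), and the adjusted p over the 7 measures was 0.760 for reads and for each of these shares but that on X, for which it was 0.971.

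**Figure D4:**
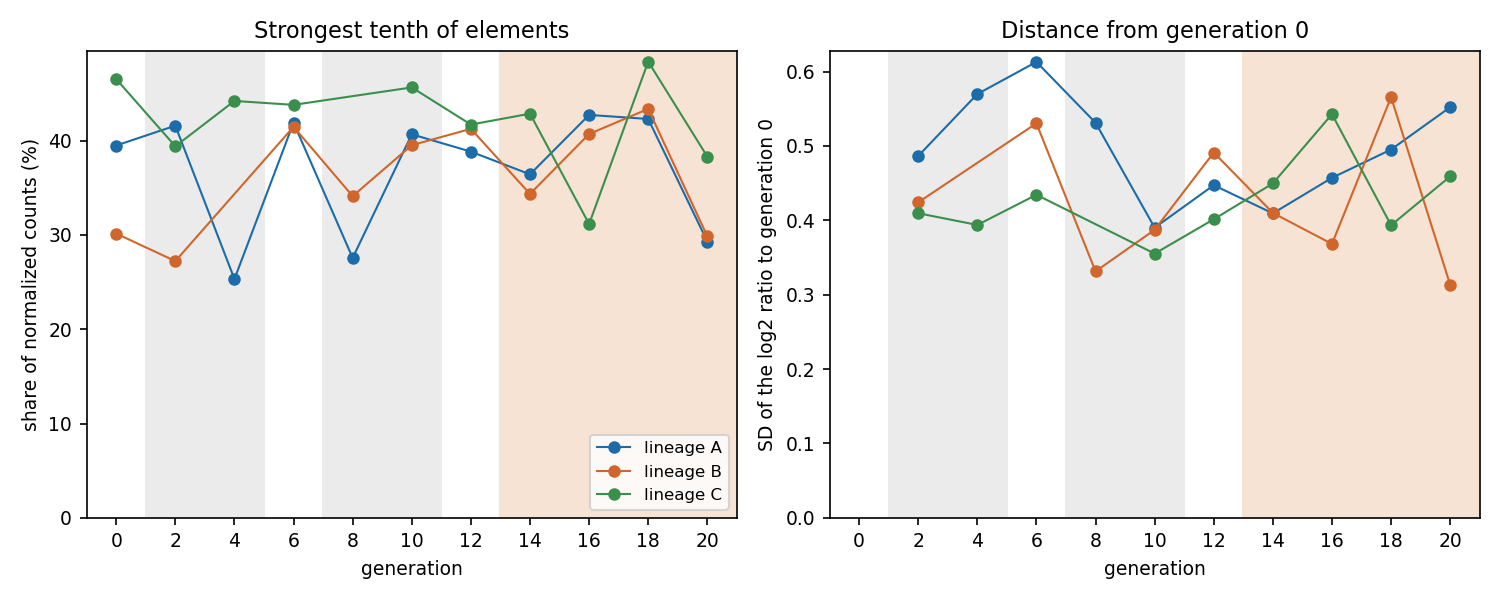
Share of normalized counts in the 3162 strongest elements (left, %) and SD over elements of the log2 ratio of a library to its lineage's generation 0 (right) against generation, with 1 point per library, 1 line per lineage, grey shading for the early generations and orange shading for the late ones. The share ranges from 25.3% to 48.4% over the shaded generations, and neither measure rises steadily with generation in any lineage.

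Generations 0 and 12, which entered neither class, did differ. Reads in elements ranged from 7625441 to 9472742 in generation 0 and from 4401434 to 5683956 in generation 12. These ranges do not overlap, so depth and generation cannot be told apart in this comparison. In generation 12, 90 elements rose (0.286%) and 95 fell (0.301%) relative to generation 0 by limma with lineage as a block, with 3836 elements at an unadjusted p under 0.05 (12.2%). Without lineage A no element was called in either direction (1241 at an unadjusted p under 0.05), without lineage B 36 rose and 47 fell, and without lineage C 290 rose and 448 fell. The lowest adjusted p among those that fell was at chrI:11771063-11771213, nearest to vab-10, the gene of a spectraplakin that links the epidermis to its skeleton. It had 272, 255 and 178 normalized counts in generation 0 of lineages A, B and C and 144, 128 and 83.5 in generation 12 (log2 difference -0.995 ± 0.17 SE, limma adjusted p = 2.75e-04). Between the classes it differed by 0.06 ± 0.14 (SE), with medians of 145 early and 163 late.

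An element nearest to egl-45, which encodes a translation initiation factor subunit, fell by 1.08 on the log2 scale between generations 0 and 12 and differed by -0.08 ± 0.16 (SE) between the classes. Among those that rose, an element nearest to cnb-1, the regulatory subunit of calcineurin, rose by 0.83 and differed by 0.26 ± 0.22 (SE) between the classes, and one nearest to elo-2, a fatty acid elongase, rose by 0.78 and differed by 0.21 ± 0.18. An element at chrIII:3294386-3294536, nearest to Y53G8AR.8, rose by 0.81 and differed by 0.70 ± 0.15 (SE, limma p = 1.00e-04 unadjusted, adjusted p = 0.452) between the classes, with medians of 153 early and 243 late.

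The elements called between generations 0 and 12 were then followed through the other generations. The 90 that rose had a median log2 difference from generation 0 of 0.56 in generation 2, 0.51 in generation 4, 0.36 in generation 10, 0.54 in generation 14 and 0.46 in generation 20. The 95 that fell had -0.49, -0.43, -0.32, -0.43 and -0.35 in the same generations. In generations 6 and 18 the medians were 0.73 and 0.66 for the 90 and -0.80 and -0.60 for the 95. Because generation 0 helped to choose these elements and is also the reference, an offset from it is favoured in every other generation. Those levels are a description, and they do not date a change or show that it lasted. Late against early, which uses neither generation, the median was 0.04 for the 90 and -0.04 for the 95. Of the 90, 8 were higher and 0 lower at an unadjusted p under 0.05, and of the 95, 1 was higher and 0 were lower, against 1.91% and 0.981% of all elements.

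**Figure D5:**
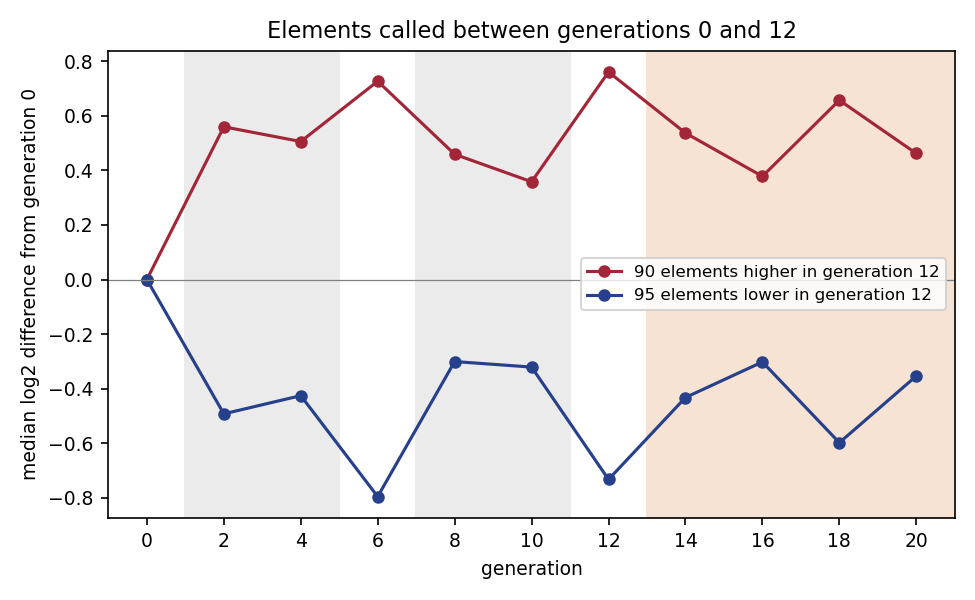
Median log2 difference from generation 0 (vertical axis) by generation (horizontal axis) of the 90 elements that rose (red) and the 95 that fell (blue) in generation 12, with grey shading for the early and orange shading for the late generations. The lines lie at 0.56 and -0.49 in generation 2 and at 0.46 and -0.35 in generation 20, an offset that the choice of elements by generation 0 favours.

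Lists of genes of the embryo, of chromatin and of stress were read through their nearest elements. No element of any of the 21 lists passed the test, and the medians of the lists are set against 0.0071 over all elements. Shares of a list at an unadjusted p under 0.05, either way, are set against 2.89% of all elements. Named members here are those of lowest p and were chosen after their values were seen. Among tissue lists, muscle genes had a median log2 difference of 0.04 over 124 elements, with 3 higher and 1 lower at an unadjusted p under 0.05 (3.23%). The leading muscle members were elements of unc-22, the gene of the giant muscle protein twitchin, and mlc-1, a myosin light chain, with log2 differences of 0.32 and -0.27. Neuron genes had a median of 0.01 over 115 elements (2 higher, 0 lower, 1.74%) and epidermis genes 0.0033 over 115 (0 and 0). Gut genes had a median of -0.01 over 52 (0 and 0) and pharynx genes 0.02 over 45 (1 and 0, 2.22%). Germline and maternal genes had a median of 0.0082 over 65 (1 and 3, 6.15%).

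Regulators of chromatin, such as histone methyltransferases, had a median of 0.06 over 69 elements. Of these 3 were higher and 0 lower at an unadjusted p under 0.05 (4.35%, against 2.89% of all elements). Genes of dosage compensation had the highest median of the lists, 0.10 over 20 elements, with 1 higher, nearest to sdc-3, which loads the complex onto X. That element had 227 to 724 normalized counts early and 350 to 917 late, a log2 difference of 0.36. Genes of the small RNA pathway had a median of -0.01 over 69 elements (1 higher and 1 lower, 2.90%), the lower one nearest to nrde-2, a nuclear RNAi factor, at -0.37.

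Nuclear hormone receptors, ligand-regulated transcription factors that are unusually numerous in C. elegans, held 16 elements higher and 6 lower of 569 (3.87%, against 2.89% of all elements), with a median of 0.02. Their element of lowest p, nearest to nhr-88, had 136 to 581 normalized counts early and 283 to 713 late, a log2 difference of 0.61 (limma adjusted p = 0.847). F-box and MATH or BATH genes, adaptors of ubiquitin ligases, held 4 higher and 9 lower of 332 (3.92%) with a median of -0.03. Collagens had 0 higher and 3 lower of 215, C-type lectins 0 and 2 of 159, and cytosolic ribosomal proteins 0 and 2 of 157 (1.40%, 1.26% and 1.27% either way, against 2.89%). The vitellogenins, yolk proteins made in the adult intestine and therefore not a product of the embryo, had the lowest median, -0.12 over 40 elements. Of these elements 0 were higher and 3 lower (7.50% either way, against 2.89%). All 3 were nearest to 1 gene, vit-5, at chrX:3406534-3406684, chrX:3406022-3406172 and chrX:3405901-3406051. The last 2 overlap, so the 3 are not separate loci. The vitellogenin genes are close copies of one another, so counts over them may be shared.

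Xenobiotic defence genes and their regulators were looked up as a fixed set of 13 loci, which took 44 elements. None passed the test, and the log2 differences lay between -0.23 and 0.22. Of the 44 elements 2 had an unadjusted p under 0.05, against 2.89% of all elements, too few to set these loci apart. The element of nhr-41 with the lowest p, chrIV:1385619-1385769 at 521 bases upstream, had 88.2 at the lowest, 114 at the median and 129 at the highest in the early libraries and 74.0, 96.8 and 114.8 in the late ones, a log2 difference of -0.23 ± 0.098 (SE, limma adjusted p = 0.999992). The element at the start of cyp-29A3, a cytochrome P450, had medians of 56.6 and 51.6 (log2 difference -0.18 ± 0.15 SE), and that of cyp-33C9 37.1 and 38.2 (0.05 ± 0.16 SE). The element of ugt-64, a UDP-glucuronosyltransferase, had medians of 34.6 and 35.4.

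The P-glycoprotein genes pgp-5 to pgp-8, ABC transporters that pump xenobiotics out of cells, lie together on the X chromosome. Their elements showed little difference while their mRNA levels were spread widely in the early class. An intronic element at chrX:10877290-10877440, 60 bases downstream of the start of pgp-6, had the lowest p of the 4 genes, with 50.004 to 85.99 normalized counts early (median 71.6) and 63.2 to 103.9 late (median 80.8), a log2 difference of 0.21 ± 0.098 (SE, limma adjusted p = 0.999992). The element 360 bases upstream of pgp-7 had a median of 170.1 in both classes (log2 difference 0.018 ± 0.085 SE), and that of pgp-8 had medians of 37.9 and 39.8.

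The mRNA of pgp-5 ran from 33.1 through a median of 674 to 2392 normalized counts in the early RNA-seq libraries and from 1169 through 1563 to 2384 in the late ones. The 3 libraries of generation 2 held the lowest values, 33.1 to 123, and the other early libraries 396 to 2392. The log2 difference was 1.64 ± 0.61 (SE, limma adjusted p = 0.438) and 0.66 ± 0.30 without generation 2 (adjusted p = 0.844). Over pgp-6, pgp-7 and pgp-8 it was 0.84, 0.84 and 0.82 with an adjusted p of 0.438 each, and 0.32, 0.32 and 0.40 without generation 2. These genes resemble one another in sequence, so reads may be shared between them.

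In RNA-seq of the same generations (11 early and 11 late libraries) 0 of 16724 genes passed either way (0.00%) by limma, with 1872 at an unadjusted p under 0.05 (11.2%; 5.91% higher and 5.28% lower) and a lowest adjusted p of 0.438. The test of edgeR called 0 as well, with 1843 at an unadjusted p under 0.05. RNA-seq libraries of the same generation resembled one another (within-generation correlation 0.356, against 0.069 in ATAC-seq), and with generation as a random block 614 genes had an unadjusted p under 0.05 (3.67%; 1.82% higher and 1.85% lower) in place of the 1872. Leaving out generation 2 gave 825 of 16698 genes (4.94%; 3.08% higher and 1.86% lower). The 5th and 95th percentiles of the log2 differences were -0.31 and 0.46, wider than for accessibility. The gene of lowest p was cysl-3, whose family is related to cysteine synthases, with 2582 normalized counts at the early median and 3270 at the late one. Its log2 difference was 0.39 ± 0.079 (SE, limma adjusted p = 0.438), and the 5 elements nearest to it differed by -0.09 to 0.10.

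The 22G-RNAs, short antisense RNAs made by RNA-dependent RNA polymerases and bound by Argonaute proteins, gave 2 calls among 6169 genes (0.0324%), both higher in the late generations (0 lower, 0.00%; 338 at an unadjusted p under 0.05, 5.48%). The 22G-RNAs antisense to nhr-84, a nuclear hormone receptor gene, had 12.4 normalized counts at the lowest, 22.2 at the median and 58.2 at the highest in the 11 early libraries and 35.6, 51.8 and 89.1 in the 11 late libraries. All 11 late libraries were above the early median and 4 were above every early library. They rose by 1.13 ± 0.19 on the log2 scale (SE, limma adjusted p = 0.0215). In generation 0 they had 43.1 to 79.1, which lies within the late range.

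Those antisense to K10G9.2 ran from 38.4 through 73.8 to 462 in the early libraries and from 83.3 through 245 to 556 in the late libraries, a rise of 1.07 ± 0.19 (SE, limma adjusted p = 0.0225). Neither call held with generation as a random block (adjusted p = 0.0509 and 0.0510), without generation 2 (0.235 for both), without lineage A (0.362 and 0.352) or without lineage C (0.444 and 0.604). The log2 difference of nhr-84 was 1.12, 0.96, 1.04 and 1.03 in these fits, close to the 1.13 over all libraries. That of K10G9.2 was 1.08, 0.99 and 1.19 in the first 3 and 0.65 without lineage C. The 4 elements nearest to nhr-84 differed by -0.0082 to 0.34 on the log2 scale and the 2 nearest to K10G9.2 by -0.06 to 0.20, none called, and the mRNAs differed by -0.05 ± 0.072 and -0.0021 ± 0.088 (SE).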

How the data were processed

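Embryos of 3 lineages were profiled by ATAC-seq, RNA-seq and small RNA-seq. The deposited values are a normalized signal, read counts that the authors divided by DESeq2 size factors. They aligned ATAC-seq and RNA-seq reads with Bowtie2 to WS252 and counted them with BEDTools over regulatory elements or coding genes, and aligned 22G-RNAs with Bowtie to ce11. Versions of these tools are not given in the sources used here. Division by a size factor assumes that most elements are alike, and does not correct how concentrated the signal of a library is. Values of exactly 1 in the ATAC-seq and RNA-seq tables were read as counts of 0 (182 and 183017 values). In all 93 libraries the values were whole multiples of 1 step within 0.001 read, and the reads so recovered were used for the count tests. Reads per library were 42039288 to 48158015 in RNA-seq and 106897 to 1504610 in 22G-RNAs of the 2 classes. Libraries of a class differ in lineage and generation. With lineage as a block, the limma p-values between the classes measure the spread over generations and libraries within lineages, not that between lineages. The sequencing pools are not in the labels used here, so batches could not be separated.

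Features with a mean of at least 10 were tested by limma 3.58.1 (R 4.3.3; moderated, robust, mean trend) on log2(value + 1) with lineage as a block, adjusted by Benjamini-Hochberg with a threshold of 0.05, and the same step was tested on simulated data. Differences on this scale understate changes of low counts. Generations 0 and 12 were compared in the same way, as was the interaction of class and lineage. Measures of libraries were tested by exact permutation of 8 generation means (scipy 1.17.1, Python 3.11.15, numpy 2.4.6, pandas 2.3.3). Alternatives used edgeR 4.0.16 and DESeq2 1.42.0, and others are given in the closing section. Coordinates are as in the files, whose WS252 and ce11 correspond to WBcel235. Nearest coding transcript starts come from Ensembl release 115.

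The classes, gene lists and tests were chosen with earlier results of these data known. The rule named up to 10 elements each way that passed and had 1 sign in all lineages or, if fewer than 3 passed, the 5 of lowest p, with their nearest genes, and the 13 xenobiotic loci. Sequence-based checks (GC content, motifs) were not made, because no genome sequence was used here.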

Additional observations from a re-analysis of the deposited data

Results flagged for a closer look

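Among 16 values examined in the 10 early ATAC-seq libraries (the 10 elements of lowest p and 6 measures of the libraries), 2 had a library far from the others by Dixon's test, which chance alone gives in about 1 of 20. For the element nearest to Y47G6A.21, generation 2 of lineage A had 86.3 normalized counts, and its gap to the next library took 0.525 of the range of the class, above the critical value for 10 libraries. For the element nearest to F22E5.8, generation 2 of lineage B had 150 normalized counts and a gap of 0.498 of the range. Both elements were on the side of lower late values.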

How the results depend on the processing

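Of 56 alternatives to the comparison of accessibility, 48 called no element, and the unadjusted p was under 0.05 for 447 to 1580 elements when adjustment for residual components is set aside. DESeq2 called 7 elements higher, 5 of them the leading ones described and the others nearest to T03D3.5 and fipp-1. With 1 library, generation or lineage left out, the calls ranged from 0 to 6 higher and 0 to 0 lower. Calls came without generation 4 (3 higher, lowest adjusted p 0.0321), without generation 4 of lineage C (3, 0.0365) and without generation 16 of lineage C (6, 0.0360). The following alternatives were chosen after seeing the data. The share of the strongest elements as a covariate gave 1 call, nearest to plx-1 (adjusted p 0.0433). With 1, 2 or 3 components of the residuals as covariates 126, 604 and 749 elements were higher and 0, 9 and 20 lower. Those components are uncorrelated with class by construction, so they leave each difference unchanged and only shrink its error, and these counts are not read as calls. All 518 refitted differences of the 10 described elements kept their direction. Most refits share most libraries with the fit that chose these elements, so a kept direction is no separate support. Of the refits 33 passed the threshold, among them fits with residual components, which are not read as calls. The 22G-RNA calls numbered 1 without the lineage block, 0 with generation as a random block, 0 without generation 2, and 0 to 2 with a lineage left out. The elements called between generations 0 and 12 ranged from 0 to 290 higher and 0 to 448 lower with a lineage left out. With each library as a unit, the share on X differed by -0.0071 percentage points in place of 0.036 (permutation p = 0.984). Thinning all libraries to 2995159 reads or quantile normalization changed no direction of the 2 distances. Calls are not compared there, since no measure could have passed alone after adjustment. The GC correction was not run. Depth limits weak elements most.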

Other observations

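The RNA-seq libraries of the classes gave values for gene groups that the elements did not single out. Of 76 histone genes, which package DNA, 39 were lower and 0 higher in late generations at an unadjusted p under 0.05, with a median log2 difference of -0.38, against 5.28% lower among all genes, and 0 passed adjustment (limma). With generation as a random block there were 24 lower (median -0.35), against 1.85% lower among all genes, and without generation 2 there were 16 (median -0.19), against 1.86%. Their summed normalized counts had a median of 228683 early and 239983 late, the opposite sign to the median of the log2 differences. The 58 elements nearest to histone genes had a median difference in accessibility of 0.04. The RNA-seq was of polyA-selected RNA, and what that selection does to histone counts was not tested. Many histone genes are close copies, so reads may be shared between them and the counts of genes are not counts of separate signals. Of 30 genes of heat shock and stress, 13 were lower and 0 higher at an unadjusted p under 0.05 (median -0.20), with generation as a random block 2 were lower, and without generation 2 there were 0 (median -0.07). Of 335 F-box and MATH or BATH genes, 24 were higher and 50 lower, against 5.91% and 5.28% of all genes. With generation as a random block they numbered 14 and 18, against 1.82% and 1.85%, and without generation 2 they numbered 12 and 26, against 3.08% and 1.86%.

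Summed marker levels overlapped between the classes. Muscle markers (6 genes) summed to 111183 to 264295 normalized counts early and 137309 to 224948 late, and pharynx markers (4 genes) to 19130 to 42308 and 22176 to 37133. Epidermis markers were tighter, at 30880 to 40470 early and 34356 to 37926 late. Sperm markers (6 genes) summed to 0.991 to 27.7 and 2.98 to 20.9, and the vitellogenins, markers of the adult intestine, to 1901 to 3042 and 2237 to 2811.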
